A study of Mus musculus with 12 samples.

Results

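Contactins and contactin-associated proteins (Cntnap, also called Caspr) are cell adhesion molecules of neurons and glia, and their transcripts were followed here in the cerebellum of cKO and WT mice. The set comprised 8 genes, 5 contactins (Cntn1, Cntn3, Cntn4, Cntn5 and Cntn6) and 3 Cntnap genes (Cntnap1, Cntnap2 and Cntnap4), taken by symbol from a table of 18394 genes, and all 8 were found. They were picked by family name with earlier results of the same cKO against WT comparison in view, so their fold changes and p-values describe these libraries and are not independent evidence. A further 5 genes of the same families in the table (Cntn2, Cntnap3, Cntnap5a, Cntnap5b and Cntnap5c) were described beside them.

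The study sequenced messenger RNA of the cerebellum from 12 mice, 6 cKO and 6 WT. The cKO animals are labelled as knockouts of Crfr1, the type 1 receptor for corticotropin-releasing factor (symbol Crhr1), made with a deltaalpha6-Cre driver. The name of the driver points to Gabra6, which codes for a GABA receptor subunit made by granule cells of the cerebellum. The WT animals are labelled by genotype alone, and the labels name no group with the driver but an intact receptor gene, so that effects of the driver and of receptor loss cannot be told apart. Age and sex are not given in the labels.

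Contactins are anchored to the membrane by a lipid and carry immunoglobulin and fibronectin domains, whereas Cntnap proteins span the membrane and carry laminin G domains related to those of neurexins. Contactin 1 and Cntnap1 form the axonal side of the paranodal junction, which fastens the myelin loops beside the node of Ranvier and binds glial neurofascin. Cntnap2 and contactin 2 hold Kv1 potassium channels at the neighbouring juxtaparanode. Contactins 3 to 6 are known mainly from the wiring of neural circuits, contactin 6 in particular from granule cell axons of the cerebellum, and Cntnap4 from the transmitter release of inhibitory interneurons in the forebrain of mice.

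The 3 Cntnap genes differ in their intracellular ends, which set their partners inside the cell. Cntnap2 and Cntnap4 end in a motif that binds PDZ domain scaffolds, whereas Cntnap1 lacks it and has a proline-rich tail. The last 60 coding bases of Cntnap4 and Cntnap2 are shown because Cntnap4 was the only member called below and these bases code for the end that carries the motif. They are given 5′ to 3′ on the plus strand from GENCODE release M21 (mm10), with the last 4 codons and the stop codon in capitals. They lie at chr8:112881823-112881882 for Cntnap4 and chr6:47298555-47298614 for Cntnap2.
Cntnap4: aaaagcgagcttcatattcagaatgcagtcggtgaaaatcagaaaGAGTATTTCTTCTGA
Cntnap2: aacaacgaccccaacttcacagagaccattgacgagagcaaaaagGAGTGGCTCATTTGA

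Library totals ran from 32.3 to 58.7 M counts in cKO and from 23.8 to 62.1 M counts in WT. The unit of a level is CPM, a gene's counts per M counts of its library after TMM scaling. Crhr1 measured 98.8 ± 6.00 CPM in cKO and 97.6 ± 4.31 CPM in WT (SD, n = 6 each), a difference within the spread between libraries. A count over the whole gene does not check a deletion limited to some exons or cells. Gabra6 measured 623 ± 30.0 CPM in cKO and 813 ± 56.1 CPM in WT (SD, n = 6 each), and no cKO library reached the lowest WT library. In whole cerebellum, a change in the number of cells of a type and one in RNA per cell cannot be told apart. Markers of granule cells were abundant, with a summed level of 6842 to 7380 CPM in cKO and 7074 to 7398 CPM in WT. Over all 15467 genes tested, 409 (2.64%) differed between cKO and WT at a Benjamini-Hochberg adjusted p under 0.05 in the quasi-likelihood test of edgeR.

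Of the 8 members, Cntnap4 was higher in cKO, the other 7 were not called and none was called lower, where 1.27% of all tested genes were called higher in cKO and 1.38% lower. The median log2 fold change of cKO over WT was 0.042 over the 8 members and −0.00027 over all tested genes. Of the 8 log2 fold changes, 6 were positive, where 49.8% of all tested genes had a positive one. Since the choice of members used this comparison, nothing is read from these counts.

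Cntnap4 (chromosome 8, 112570043 to 112882717, plus strand, mm10), which encodes a Cntnap protein known from interneuron terminals, rose by 21.6% in cKO cerebella. Its 6 cKO libraries had 100.9 to 106 CPM with a median of 103 CPM, and its 6 WT libraries 80.5 to 89.3 CPM with a median of 85.1 CPM. Every cKO library lay above every WT library, a separation that 2.09% of all tested genes showed in either direction. The mean was 103 ± 1.84 CPM in cKO and 84.9 ± 2.83 CPM in WT (SD, n = 6 each), so that the difference was several times the spread within each genotype. On the log2 scale the fold change of cKO over WT came to 0.28 (95% interval 0.23 to 0.33, SE 0.02; edgeR adjusted p = 1.45e-06). Depth was not limiting, since Cntnap4 had 2024 to 6106 counts in a library. In the authors' deposited table Cntnap4 has a log2 fold change of 0.26 and an adjusted p of 9.50e-24, and 3.71% of the genes with an adjusted p in that table are below 0.05.

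Cntnap4 was also higher in cKO when set against its relatives in the same library. Cntnap4 made up 9.004 ± 0.18% of the summed CPM of the 8 members in cKO and 7.60 ± 0.19% in WT (SD, n = 6 each). The ratio of Cntnap4 to Cntnap2 CPM was 1.65 ± 0.11 in cKO and 1.39 ± 0.083 in WT (SD, n = 6 each). It ran from 1.55 to 1.80 in cKO and from 1.28 to 1.49 in WT, with no overlap. The other 7 members together summed to 1043 ± 16.03 CPM in cKO and 1032 ± 18.2 CPM in WT (SD, n = 6 each), values whose ranges overlap. These ratios use the same comparison and are given as a description.

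**Figure D1:**
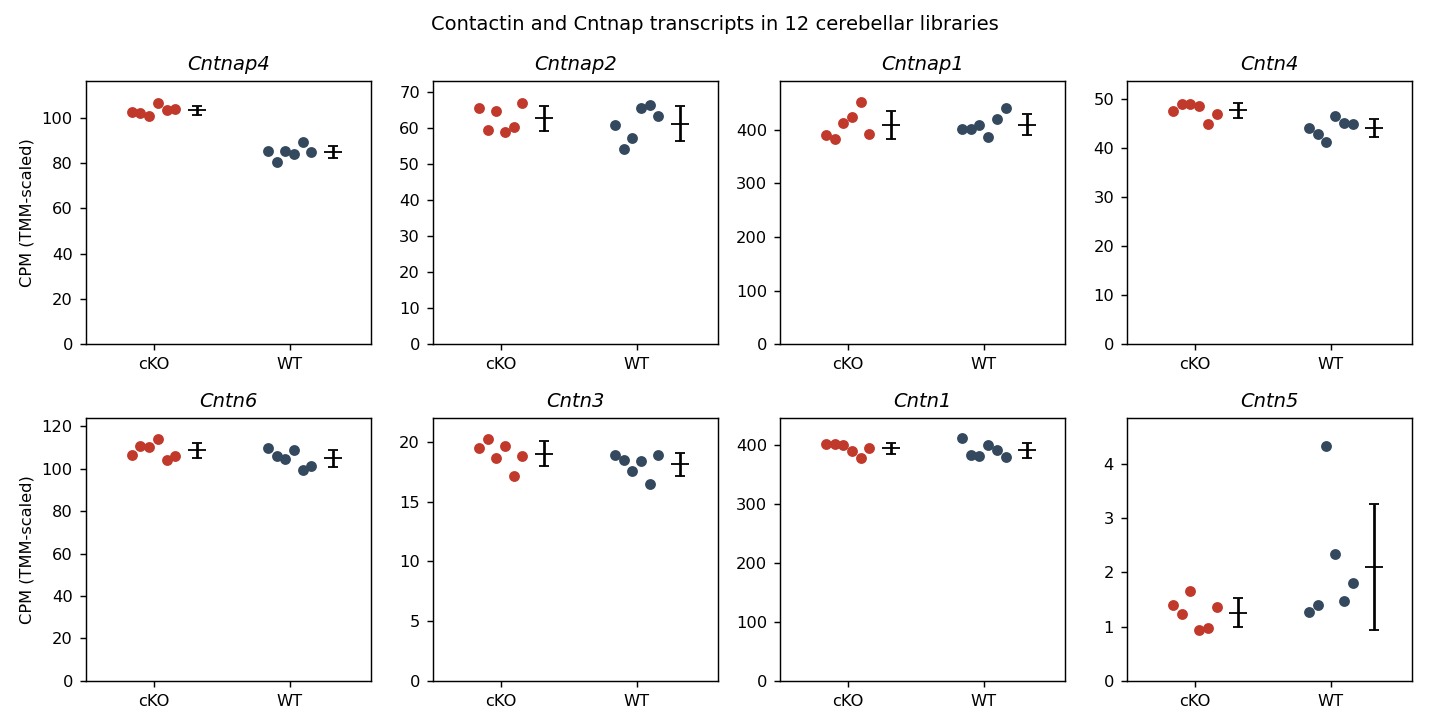
CPM of the 8 members (vertical axes from 0, a separate scale for each gene) in the 6 cKO libraries (red) and the 6 WT libraries (dark blue). Points are libraries and the bars beside them the mean ± SD. For Cntnap4 the cKO points (100.9 to 106 CPM) lie above all WT points (80.5 to 89.3 CPM), and for the other 7 genes the groups overlap, with 1 WT library of Cntn5 at 4.32 CPM.

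Marker lists of cell types and regions were set beside Cntnap4, and their part in its rise was not tested. Over all tested genes 1.27% were called higher and 1.38% lower, and 49.8% had a positive log2 fold change. Of 12 markers of inhibitory interneurons 11 had a negative log2 fold change, 1 was called lower (Lgi2) and none was at 0. Their summed level was 1553 to 1691 CPM in cKO and 1677 to 1745 CPM in WT, ranges that overlapped. Of 12 granule cell markers 5 had a positive log2 fold change, 1 was called higher (Etv1) and 3 lower (Gabra6, Zic1 and Grm4). Of 10 microglia markers all had a positive log2 fold change and 2 were called higher (Cx3cr1 and Csf1r), with a summed level of 171 to 199 CPM in cKO and 163 to 177 CPM in WT. Of 7 unipolar brush cell markers 2 were called lower, with a summed level of 777 to 806 CPM in cKO and 812 to 854 CPM in WT. Positive log2 fold changes were found in all 8 endothelial and mural markers and in 7 of 8 oligodendrocyte precursor markers. They were found in 5 of 10 Purkinje cell markers and 5 of 10 astrocyte and Bergmann glia markers. The same held for 4 of 12 oligodendrocyte markers and 3 of 9 choroid plexus and meningeal markers. None of these further lists held a call by edgeR. Of 7 tested forebrain genes 5 had a positive log2 fold change and 1 was called higher. The summed forebrain level was 58.2 to 64.4 CPM in cKO and 59.7 to 63.7 CPM in WT, with overlap. Of 14 midbrain and brainstem genes 5 passed the filter on low counts. All 5 were positive (median 0.22), 0 were called by edgeR and 1 had an unadjusted p under 0.05. The 14 genes were rare, with a summed level of 3.44 to 7.50 CPM in cKO and 3.25 to 5.79 CPM in WT. A rare gene can pass that filter through the genotype where it is higher, so nothing is read from these signs. The mean log2 CPM of the 12 tested genes of the forebrain, midbrain and brainstem, which a dissection can carry along, was −0.12 to 0.67 in cKO and −0.39 to 0.44 in WT. With the mean log2 level of these regional genes as a covariate Cntnap4 had a log2 fold change of 0.28, and without the 4 libraries highest in it (3 cKO and 1 WT) 0.32 (edgeR adjusted p = 1.83e-05 and 5.73e-05). The 12 genes passed the same filter on low counts, so their mean can follow genotype. The part of dissection was therefore not tested by these fits.

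The neighbourhood of Cntnap4 on chromosome 8 held 15 other tested genes within 1 Mb. Of them 0 were called (edgeR, adjusted p under 0.05), where 2.64% of all tested genes were called, so nothing is read from that count. The log2 fold changes of the 15 neighbours ran from −0.19 to 0.06 with a median of 0.0054. The transcripts of Cntnap4 share 458 of their 6280 different stretches of 50 bases (7.29%) with the antisense gene Gm45904, which overlaps its 3′ end, and none with another member. The libraries are stranded, but the strand setting of the counting is not given, so reads of that partner could be included.

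The other transmembrane members showed no difference that passed the test. Cntnap2 (chromosome 6, 45059357 to 47304213, plus strand), the partner of Kv1 channels, had 59.03 to 67.1 CPM in cKO with a median of 62.7, and 54.3 to 66.6 CPM in WT with a median of 62.1. The groups overlapped almost wholly, and its log2 fold change was 0.03 (95% interval −0.07 to 0.13; edgeR adjusted p = 0.820). Cntnap1 (chromosome 11, 101170523 to 101190724, plus strand), the axonal paranodal protein, had 383 to 451 CPM in cKO with a median of 402, and 386 to 441 CPM in WT with a median of 405. Its log2 fold change was −0.0034 (95% interval −0.08 to 0.08; edgeR adjusted p = 0.986). Cntnap1 lies 2.94 Mb from Crhr1, the targeted gene. Within 1 Mb of Cntnap1 1 of 65 other tested genes was called (Sost, lower), where 2.64% of all tested genes were called. Sost codes for the secreted Wnt inhibitor sclerostin. Cntnap1 overlaps the spans of Plekhh3 and Ccr10 on the opposite strand. It shares 185 of its 5812 different stretches of 50 bases with Plekhh3, so that its counts could hold some reads of that gene. Ccr10 is not among the genes that share the most stretches with it.

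Cntn1 (chromosome 15, 92051165 to 92341967, plus strand), the contactin that pairs with Cntnap1 at the paranode, had 379 to 403 CPM in cKO with a median of 399, and 379.7 to 412 CPM in WT with a median of 388. Its log2 fold change came to 0.01 (edgeR adjusted p = 0.863), with a 95% interval of −0.04 to 0.07 that leaves out changes as large as that of Cntnap4. The groups overlapped. The ratio of Cntnap1 to Cntn1 CPM was 1.04 ± 0.090 in cKO and 1.05 ± 0.073 in WT (SD, n = 6 each), and its ranges overlapped. Levels of Cntnap1 and Cntn1 thus differed by less than the spread between libraries, singly and in their ratio.

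Cntn3, Cntn6 and Cntn4 lie in this order on chromosome 6, from 102162655 to 106699310, with the adhesion gene Chl1 between Cntn3 and Cntn6. Cntn3 lies on the minus strand and the other 2 on the plus strand. Their coding sequences are also the most alike among the contactins here, with 65.4% to 67.4% identical bases in pairwise global alignments, against 62.1% to 63.9% for each of them with Cntn5. Cntn1 had 58.5% to 59.4% with the other contactins, at or below the low end of the 59.4% to 62.1% between contactins and Cntnap genes, so identities of this size do not tell the families apart. None of the 8 members shares a stretch of 50 bases with another member.

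Cntn4, a contactin of axon guidance in the olfactory system of mice, came nearest to a call among the contactins. It had 44.996 to 49.1 CPM in cKO with a median of 48.2, and 41.2 to 46.6 CPM in WT with a median of 44.6. Of the 6 cKO libraries 5 lay above the highest WT library, and 1 cKO library fell among the WT values. The mean was 47.8 ± 1.601 CPM in cKO and 44.2 ± 1.89 CPM in WT (SD, n = 6 each). The fold change was 0.11 on the log2 scale (95% interval 0.05 to 0.18), with an unadjusted p of 0.00258 and an adjusted p of 0.0755 in edgeR. Cntn4 is called in the authors' deposited table, with a log2 fold change of 0.10 and an adjusted p of 0.0398. DESeq2, which the submitters' notes also name, gave 0.11 on the same counts (adjusted p = 0.0397), so these calls are not separate evidence. Without the cKO library that fell among the WT values (replicate 5) edgeR called it as well (0.13, adjusted p = 0.0269), whereas with surrogate variables the value was 0.08 (adjusted p = 0.730).

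Cntn6, the contactin of parallel fibre synapses, and Cntn3, described in rat in Purkinje cells among other neurons, had positive log2 fold changes that did not pass. Cntn6 (chromosome 6, 104492790 to 104863406) had 104 to 114 CPM in cKO with a median of 108, and 99.3 to 109.6 CPM in WT with a median of 105. The groups overlapped, and the log2 fold change was 0.05 (95% interval −0.0097 to 0.11; edgeR adjusted p = 0.450). Cntn3 had 17.2 to 20.2 CPM in cKO with a median of 19.2, and 16.4 to 18.9 CPM in WT with a median of 18.4. Its log2 fold change was 0.07 (95% interval −0.03 to 0.16; edgeR adjusted p = 0.543). Within 1 Mb of Cntn3, Cntn4 and Cntn6 lay 2, 4 and 2 other tested genes, some of them shared, with Cntn4 and Cntn6 counted for each other. Chl1 among them had a log2 fold change of 0.08 (edgeR adjusted p = 0.356). These windows held 0 calls, where 2.64% of all tested genes were called, so nothing is read from so few genes.

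Cntn5 (chromosome 9, 9660891 to 10904775, minus strand), a contactin studied in auditory and visual circuits, was the rarest member and the most variable. It had 30 to 178 counts in a library, or 0.94 to 1.65 CPM in cKO with a median of 1.29 and 1.26 to 4.32 CPM in WT with a median of 1.64. WT replicate 3 stood apart at 4.32 CPM, with the next WT library at 2.34 CPM, and the groups overlapped. Its fold change on the log2 scale was −0.77 (95% interval −1.30 to −0.25, SE 0.25; edgeR unadjusted p = 0.00650 and adjusted p = 0.133), and without WT replicate 3 it was −0.41 (SE 0.18, adjusted p = 0.357). In the authors' deposited table Cntn5 has a log2 fold change of −0.065 and an adjusted p of 0.227. No gene of that table has an SE above 0.049, so the fold changes there are not on the scale of those given here. For the abundant Gabra6 the log2 fold change is −0.32 there and −0.38 in edgeR. The biological variation that edgeR estimated for a library was 28.2% for Cntn5 and 2.87% for Cntnap4. Part of Cntn5, 4.38% of its different stretches of 50 bases, is shared with the antisense gene Gm32710.

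**Figure D2:**
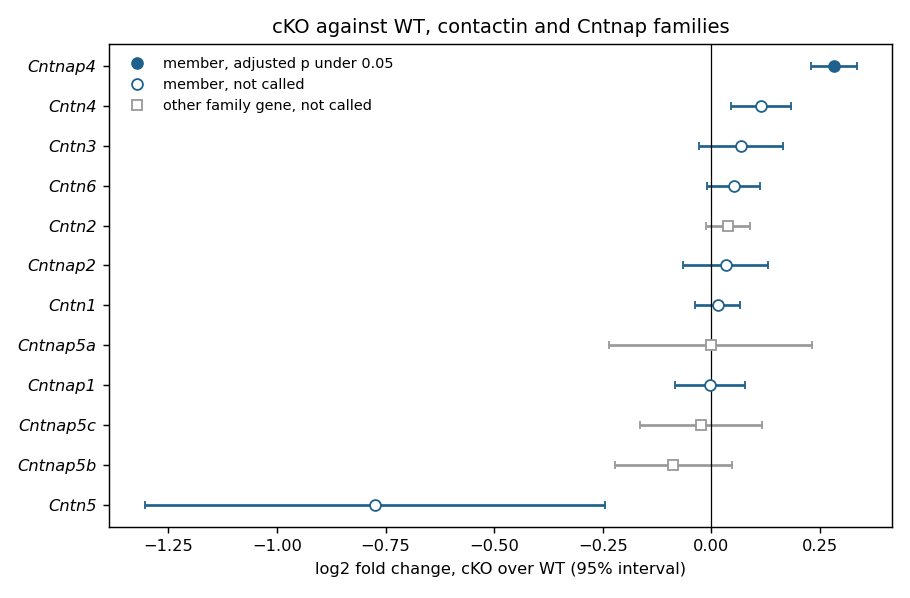
Log2 fold change of cKO over WT with its 95% interval for the 8 members (circles) and the 4 other family genes that were tested (grey squares). The filled circle, Cntnap4 at 0.28, is the 1 gene called, and Cntn5 at −0.77 has the widest interval.

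Among the other genes of the 2 families, 0 of 4 tested were called (edgeR, adjusted p under 0.05), where 2.64% of all tested genes were called. Of the 4, 0 had an unadjusted p under 0.05 in edgeR, and 0 were called by DESeq2 or limma-voom. Cntn2, the juxtaparanodal partner of Cntnap2, measured 585 ± 19.6 CPM in cKO and 570 ± 10.1 CPM in WT (SD, n = 6 each), with a log2 fold change of 0.04 (95% interval −0.01 to 0.09; edgeR adjusted p = 0.514). Cntnap5b measured 31.4 ± 3.16 CPM in cKO and 33.3 ± 2.98 CPM in WT (SD, n = 6 each). Cntnap5c averaged 7.75 CPM in cKO and 7.90 CPM in WT, and Cntnap5a 4.01 CPM in cKO and 3.96 CPM in WT, and the groups overlapped for each. These 3 genes share up to 57 stretches of 50 bases with each other, so a small part of their counts could be split between them. Cntnap3 had 2 to 9 counts in a library and did not pass the filter on low counts.

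Levels of different genes were compared only per length, as CPM per kb of exon. Over 13 family genes in cKO, Cntnap1 stood at 69.6 ± 4.42 CPM per kb, followed by Cntn2 at 62.9 ± 2.11 and Cntn1 at 41.9 ± 0.99 (SD, n = 6 each). In WT the same 3 genes led, Cntnap1 at 69.7 ± 3.24 CPM per kb, Cntn2 at 61.3 ± 1.09 and Cntn1 at 41.5 ± 1.37 (SD, n = 6 each). These 3 genes were the same in both genotypes, and Cntnap2 stood lower, at 6.12 ± 0.34 CPM per kb in cKO and 5.98 ± 0.47 CPM per kb in WT (SD, n = 6 each).

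Cntn6 and Cntnap4 came next, and here the genotypes differed in how far the genes stood apart. In cKO Cntn6 had 16.01 to 17.6 CPM per kb and Cntnap4 16.1 to 16.9 CPM per kb, so their ranges overlapped. In WT Cntn6 had 15.3 to 16.9 CPM per kb and Cntnap4 12.8 to 14.2 CPM per kb, with no overlap. Cntnap2, Cntnap5b and Cntn4 followed with means between 5.63 and 6.12 CPM per kb in cKO and between 5.20 and 6.39 in WT, neighbours that overlapped. Cntn3 averaged 2.82 CPM per kb in cKO and 2.69 in WT, and Cntn5 0.28 in cKO and 0.46 in WT. Exon lengths are those of GENCODE M21, which may not be the annotation that was counted.

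**Figure D3:**
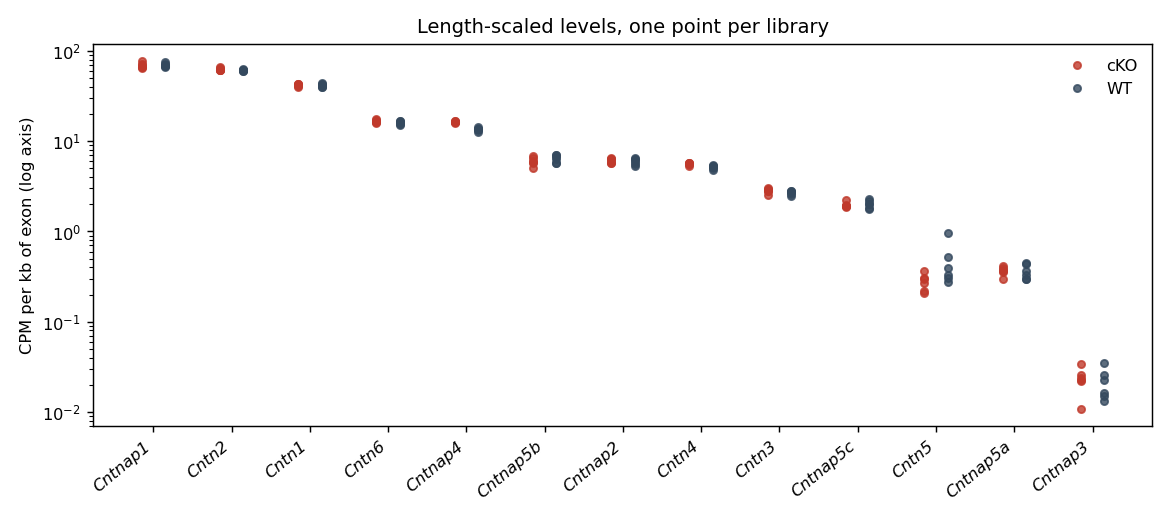
CPM per kb of exon on a log axis for 13 family genes, in order of their mean, with 1 point for each cKO (red, left) and WT (dark blue, right) library. Levels run from about 70 for Cntnap1 down to Cntnap3, and for Cntnap4 the cKO points (16.1 to 16.9) clear the WT points (12.8 to 14.2).

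Once the mean of each genotype was removed, the members did not vary together as a block over the 12 libraries. Pearson's r of log2 CPM ran from −0.68 to 0.63 over the 28 pairs of members with a median of −0.05, and 4 pairs were above 0.5. These were Cntn3 with Cntn6 (0.63), Cntn1 with Cntn4 (0.59), Cntn1 with Cntn6 (0.51) and Cntnap2 with Cntn4 (0.51). The paranodal pair, Cntnap1 with Cntn1, had the lowest value, −0.68. Cntnap4 had r between −0.36 and 0.43 with the other members. The libraries share dissection and depth differences, and these values are a description of 12 points.

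**Figure D4:**
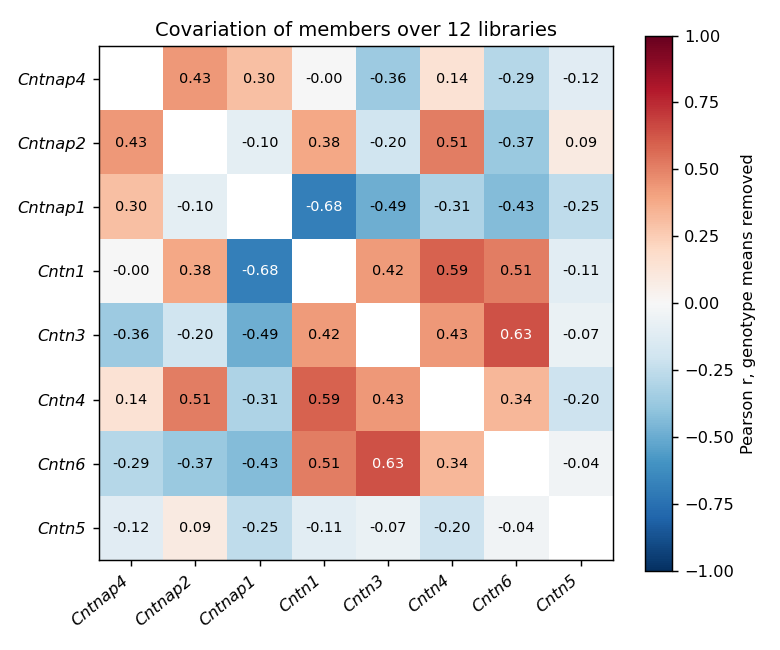
Pearson's r of log2 CPM between members over 12 libraries after the mean of each genotype was removed (red positive, blue negative). Cntn3 and Cntn6 (0.63) and Cntnap1 and Cntn1 (−0.68) mark the 2 ends of the range.

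The genes whose variation over the 12 libraries was most like that of each member, among 13820 others with a mean of at least 1 CPM, had r of at least 0.84. For Cntnap4 they were Tiam2, an activator of Rac, with r = 0.88, Vmn2r1 with 0.86 and Ntm, a lipid-anchored adhesion molecule, with 0.86. None of these 3 was called (edgeR adjusted p = 0.138 to 0.325), and Vmn2r1 lay close to the bound of 1 CPM (mean 1.04 CPM in cKO and 1.44 CPM in WT). For Cntnap1 they included Supt5 (0.97) and 6430548M08Rik (0.96), and for Cntnap2 they were Lmbrd2, Itgb8 and 4732491K20Rik (0.94 to 0.95). For Cntn1 they were Tcf12, Ints8 and Ttpa (0.93), for Cntn3 Tpx2, Bbs9 and Mrpl35 (0.88 to 0.93), and for Cntn4 Tagap1, E2f6 and Hrh2 (0.88 to 0.93). For Cntn5 they were Lman1, Ube2s and Sh3rf1 (0.84 to 0.88), and for Cntn6 Elavl1, Ercc5 and Ubtd2 (0.87 to 0.90). Such values are the highest of 13820 over few libraries and are given as a description.

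Transcripts of partner proteins were counted in 3 lists. The lists were chosen with earlier results of these data known, so nothing is read from the number of calls in them. Lgi2, counted here with the juxtaparanode, is also among the interneuron markers above. Of 12 tested genes of the juxtaparanode 8 were not called, 2 were higher (Lgi1 and Adam23) and 2 lower (Kcna2 and Lgi2), where 1.27% of all tested genes were called higher and 1.38% lower. Their median log2 fold change was 0.0066, and with surrogate variables 0 were called higher. Lgi1, a secreted ligand of ADAM receptors whose loss causes epilepsy, measured 88.8 ± 2.37 CPM in cKO and 79.7 ± 2.35 CPM in WT (SD, n = 6 each). All its cKO libraries (85.5 to 92.2 CPM) lay above all WT libraries (77.4 to 83.7 CPM), a log2 fold change of 0.16 (edgeR adjusted p = 0.00176, SE 0.03). Its receptor Adam23 measured 256 ± 5.02 CPM in cKO and 234 ± 5.84 CPM in WT (SD, n = 6 each), again without overlap, and its log2 fold change was 0.13 (edgeR adjusted p = 0.00217, SE 0.02). Lgi1 lost its call with surrogate variables (log2 fold change 0.15, adjusted p = 0.0778) and on dropping the 4 libraries highest in regional genes (0.12, adjusted p = 0.152). Adam23 lost its call with surrogate variables (0.11, adjusted p = 0.193).

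Kcna2, a Kv1 channel subunit that Cntnap2 helps to hold in place, measured 547 ± 31.5 CPM in cKO and 664 ± 20.7 CPM in WT (SD, n = 6 each; log2 fold change −0.28, edgeR adjusted p = 5.10e-05). Its partner subunit Kcna1 had a log2 fold change of 0.0093 and Cntnap2 itself 0.03, neither called. Lgi2 (46.01 ± 2.82 CPM in cKO and 53.03 ± 2.53 CPM in WT; SD, n = 6 each) lost its call without the 4 libraries highest in regional genes (log2 fold change −0.19, adjusted p = 0.149, against −0.21 and 0.00666 with all 12).

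The node and paranode list held 14 tested genes, among them Nfasc, the ankyrins and the sodium channels. Of these 0 were called by edgeR, where 2.64% of all tested genes were, and 1 by DESeq2 (Scn2b). The median log2 fold change of the list was 0.0079. The 2 with the smallest p were Scn2b, a sodium channel β subunit, with a log2 fold change of 0.11 (edgeR adjusted p = 0.0581), and Nrcam, an adhesion molecule of the node, with 0.09 (edgeR adjusted p = 0.192). Scn2b passed with the regional genes as a covariate (0.15, adjusted p = 0.00421) and without cKO replicate 1 (0.13, adjusted p = 0.0347). Nfasc, the neurofascin that binds the paranodal pair, had a log2 fold change of 0.05 (edgeR adjusted p = 0.394).

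Of 17 ligands and coreceptors of contactins and Cntnap proteins, 2 were lower, Ptprg among them, where 1.38% of all tested genes were called lower. The other 15 were not called, and the median log2 fold change of the list was 0.0060. Ptprg, a receptor phosphatase that binds contactins 3 to 6, measured 66.9 ± 2.53 CPM in cKO and 73.8 ± 2.97 CPM in WT (SD, n = 6 each), and the groups overlapped. The fold change of Ptprg was −0.14 on the log2 scale (edgeR adjusted p = 0.0156). Its call was lost at nearly the same fold change without WT replicate 3 (−0.13, adjusted p = 0.0536), without WT replicate 4 (−0.13, adjusted p = 0.0504), with surrogate variables (−0.13, adjusted p = 0.143) and on dropping the 4 libraries highest in regional genes (−0.14, adjusted p = 0.187). Ptprz1, the related phosphatase that binds contactin 1, had a log2 fold change of 0.01 and was not called.

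**Figure D5:**
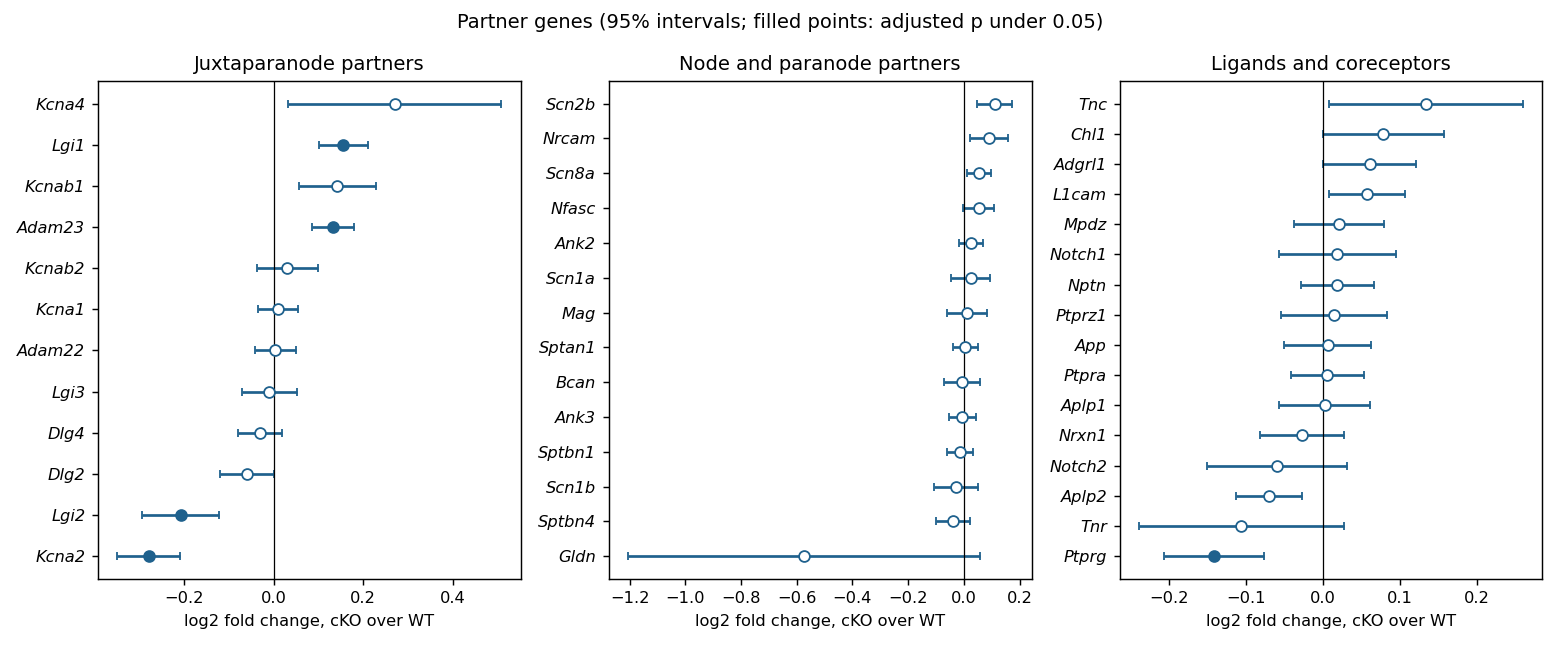
Log2 fold change of cKO over WT with its 95% interval for tested partner genes in 3 lists, juxtaparanode (12 genes), node and paranode (14) and ligands and coreceptors (16 of the 17), on a separate horizontal scale for each. Filled points passed an adjusted p of 0.05: Lgi1 and Adam23 to the right of 0, Kcna2, Lgi2 and Ptprg to the left, and none in the node and paranode list.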

How the data were processed

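Cerebellar mRNA of 6 cKO and 6 WT mice was analysed from raw counts per gene symbol, which the authors deposited without normalisation. STAR, DESeq2 and mm10 are named, per the submitters' processing notes. How reads were assigned to genes (tool, strand, annotation) is not given in the sources used here. Per the labels' protocols a stranded mRNA kit was used and all samples shared the same lanes. The authors' deposited comparison holds log2 fold changes, p-values and a test score, and a mean signal of counts divided by size factors, per the file headers. Its sign was read from 400 genes called in both analyses, all of the same sign with positive higher in cKO.

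With edgeR 4.0.16 (R 4.3.3), filterByExpr left 15467 of 18394 genes, TMM scaled the libraries, and glmQLFit with glmQLFTest compared genotypes on the counts, adjusted by Benjamini-Hochberg over all tested genes. SEs and 95% intervals derive from the test statistic. CPM was computed from the counts. The script was tested on simulated data. Alternatives (the closing section gives their effect) used limma 3.58.1, DESeq2 1.42.0 and sva 3.50.0. Genes were named by rule: the members, their family, partner genes called (or the 2 of smallest p in a list) and the 3 genes most alike in variation, while other genes named, such as markers, were chosen after their values were seen. The members and lists were chosen with earlier results of these data known. No 2 libraries of a genotype agreed within counting noise (chi-square per degree of freedom at least 2.68, genes with 100 or more counts). Replicate numbers follow the order of deposit, and the p-values measure the spread between libraries, which the design text describes as separate cerebella. Unmatched sample columns and rows without a gene name numbered 0. Some genes and a sequence that these rules name are not reported here.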

Additional observations from a re-analysis of the deposited data

Results flagged for a closer look

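Of the 16 groups of 6 libraries examined for the 8 members, 1 held a library far from the others, and chance alone sets apart about 5% of such groups. This was Cntn5 in WT replicate 3, at 4.32 CPM, where the next WT library had 2.34 CPM and the gap took up 0.65 of the whole range, past the 95% limit of Dixon's test. The cause was not tested.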

How the results depend on the processing

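No paired analysis was possible because the labels give the genotypes no shared replicate numbers. Cntnap4 kept its direction and its call in all 20 alternatives, with a log2 fold change of 0.27 to 0.32 and an adjusted p of at most 0.00022, including leaving out each library in turn (0.27 to 0.30). The number of members called higher was 2 with DESeq2, Cntn4 being the second (0.11), and 1 to 2 on leaving out a library. Cntn4 ranged from 0.094 to 0.13 on leaving out a library. With surrogate variables 69 genes were called higher and 76 lower over all genes, with regional genes as a covariate 132 lower, and without the 4 libraries highest in them 89 higher and 68 lower. On leaving out a library 134 to 214 genes were called higher and 138 to 248 lower, with 138 lower without WT replicate 3. Changes of sign occurred in genes near 0 that were not called. Cntnap1 had 0.0042 with counts thinned to equal depth, 0.0062 with the covariate, 0.050 without the 4 libraries and −0.034 to 0.019 on leaving out a library. Cntnap2 had −0.017 with the covariate, and Cntn1 −0.011 without the 4 libraries. Cntnap5a had 0.0030 with DESeq2, 0.092 with thinned counts, 0.023 without the 4 libraries and −0.058 to 0.090 on leaving out a library. Cntnap5c had 0.012 with surrogate variables, 0.032 without the 4 libraries and −0.065 to 0.014 on leaving out a library. The cause was not tested. Counts limit Cntn5 and Cntnap3 most.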
